A study of Homo sapiens with 42 samples.

Results

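The 10 genes studied here belong to the AP-1 family and its close relatives. They are the FOS genes FOS, FOSB, FOSL1 and FOSL2, the JUN genes JUN, JUNB and JUND, and the related bZIP genes JDP2, BATF3 and MAFF. The genes were chosen by symbol, with earlier results of these data known, and all 10 were found among the 34318 genes measured. The same holds for the choice of the gene lists and tests below. All 10 passed the filter on low counts in each of the 15 comparisons made. The study measured polyadenylated RNA in 42 libraries, 3 for each of 14 groups, to ask how interference with RNA polymerase III (Pol III) bears on other genes. THP-1 cells come from a human monocytic leukaemia. Their groups were cycloheximide, a translation inhibitor (CHX, 10 ug/ml, 4.5 h), together with ML-60218, which inhibits Pol III (25 uM, 4 h), CHX alone, ML-60218 alone, and DMSO. In HEK293T, a human embryonic kidney line, cells received for 48 h an antisense oligonucleotide (ASO) against POLR3G or a scramble ASO (200 nM), a POLR3G siRNA or a control siRNA (200 nM), the POLR3GL siRNAs siE4, siE6 or siE8 or a control siRNA (25 nM), and a plasmid for MAF1 or for eGFP. POLR3G and POLR3GL encode alternative forms of a Pol III subunit, and MAF1 is a repressor of Pol III. The labels name no separate cultures behind the replicates, so p-values reflect library-to-library spread only, possibly technical.

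AP-1 is a dimer of basic leucine zipper proteins, typically a FOS with a JUN protein or 2 JUN proteins, that binds DNA at TGACTCA and related sites. FOS, FOSB, JUN and JUNB are classical immediate early genes: their mRNAs rise within minutes of a stimulus without new protein synthesis, and decay fast. Blocking translation is known to raise such mRNAs further, which is called superinduction, and in monocytes AP-1 is known for its part in differentiation and inflammatory gene expression.

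The proximal promoters are shown because several members carry the same short element there. A search of both strands of the RefSeq windows (250 bases before to 50 after the gene start, GRCh38.p14) used TGACGT, the core of the cAMP response element, TGACTCA, the AP-1 site, and TGACATCA, known from the JUN promoter as a site for JUN and ATF2. Windows were found for 8 of the 10 members. JDP2 and MAFF have several, which makes 11 windows in all. TGACGT was present in 6 of these 11 windows, 1 each for FOS, FOSB, FOSL2, JUND, JDP2 and MAFF, while 7.98% of 35116 promoter windows hold it. TGACTCA was found in FOSL2 alone among the members, against 4.95% of all windows, and TGACATCA in JUN alone, against 2.61%. Relative to the start, TGACGT began at -64 in FOS, at -60 in FOSB and at -66 in FOSL2, and TGACATCA at -67 in JUN. Elsewhere TGACGT began at -97 in JDP2 and, on either strand, at -200, -198 and -87 in JUND and at -54 and -52 in MAFF. The JUND matches at -200 and -198 and the TGACTCA of FOSL2, at 5 to 11 after the start, lie outside the stretches printed. In each line below, the 110 bases before the start are given 5′ to 3′ on the gene's strand, with matches in capitals; in MAFF, matches on both strands overlap.
FOS (chr14:75278718-75278827, plus strand): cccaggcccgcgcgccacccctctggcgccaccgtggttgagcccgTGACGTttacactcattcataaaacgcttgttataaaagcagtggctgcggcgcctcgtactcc
FOSB (chr19:45467886-45467995, plus strand): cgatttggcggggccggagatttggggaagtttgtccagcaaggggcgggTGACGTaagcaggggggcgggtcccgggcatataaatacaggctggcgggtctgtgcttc
FOSL2 (chr2:28392748-28392857, plus strand): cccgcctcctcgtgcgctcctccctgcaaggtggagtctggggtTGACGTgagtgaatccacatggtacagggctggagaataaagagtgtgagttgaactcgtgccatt
JUN (chr1:58784048-58784157, minus strand): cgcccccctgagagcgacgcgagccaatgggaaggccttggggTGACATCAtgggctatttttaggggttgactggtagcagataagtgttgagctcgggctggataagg
JUND (chr19:18281623-18281732, minus strand): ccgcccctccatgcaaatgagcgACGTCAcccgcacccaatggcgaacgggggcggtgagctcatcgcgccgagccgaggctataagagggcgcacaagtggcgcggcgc
MAFF (chr22:38201884-38201993, plus strand): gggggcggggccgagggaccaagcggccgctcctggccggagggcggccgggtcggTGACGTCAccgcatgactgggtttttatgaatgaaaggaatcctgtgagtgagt

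AU-rich elements in the 3′ UTR are the other feature these mRNAs are known for, since they mark early gene mRNAs for rapid decay. The 3′ UTR of each gene's leading coding transcript in THP-1 was read from GENCODE 29 (GRCh38). The 9-base motif TTATTTATT was present in FOS, FOSL2 and MAFF, 3 of the 10 members, against 7.81% of 13131 genes tested in THP-1. A longer UTR has more room for it, and these UTRs differ in length. They hold 806 bases in FOS, 4864 in FOSL2 and 1633 in MAFF, against a median of 978 over those genes. The pentamer ATTTA stood at 6.20 per kb in FOS and 4.0 per kb in JUNB, against a median of 1.58 per kb over those genes, and JDP2 had 0. FOSB, with 3 pentamers, stood at 1.39 per kb, FOSL2 at 1.85 per kb and MAFF at 2.45 per kb. For FOS and MAFF, 30-base stretches that hold TTATTTATT were ranked by their pentamers. The first stretch with the most is given below, with pentamers in capitals.
FOS (chr14:75282049-75282078, plus strand): acgttttattgtgtttttaATTTATTTAtt
MAFF (chr22:38216392-38216421, plus strand): atattgcccggctcctagaATTTATTTAtt

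Libraries held 32705684 to 52568088 estimated reads. The summed level of 10 monocytic markers was 3870 to 6160 depth-normalised counts (CPM) in THP-1 libraries and 3.04 to 41.4 CPM in HEK293T libraries, where the highest values were those with the POLR3G ASO. POLR3G fell to 8.57 CPM with the ASO, against 24.1 CPM with the scramble ASO, and to 14.5 CPM with its siRNA, against 34.4 CPM with the control siRNA. On the log2 scale POLR3GL fell by 3.56, 3.35 and 3.71 with siE4, siE6 and siE8, and MAF1 rose by 6.22 with its plasmid. POLR3G also fell with siE4, siE6 and siE8 (by 0.84, 0.56 and 0.93).

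Between genes, levels were compared per length, as length-scaled abundances (TPM). In THP-1 with DMSO, FOSL2 (55.1 ± 1.04 TPM, SD, n = 3) and JUND (49.4 ± 1.17 TPM) were highest, followed by JUN (29.5 ± 0.613), FOS (18.4 ± 0.407), JUNB (15.8 ± 0.963), JDP2 (8.66 ± 0.665), FOSL1 (6.10 ± 0.214), BATF3 (1.66 ± 0.270), MAFF (0.953 ± 0.0725) and FOSB (0.312 ± 0.0896). No neighbours in that order overlapped between libraries. HEK293T cells had another order: JUN was the highest member in 9 of 10 groups, at group means of 94.8 to 251 TPM, and FOSL2 lay at 1.56 to 3.64 TPM. In the remaining group, siE8, JUND averaged 115 TPM and JUN 100.2 TPM.

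The comparison of CHX with ML-60218 against CHX alone asks what ML-60218 does to these mRNAs when translation is blocked. Of the 10 members, 8 rose and none fell, at an adjusted p under 0.05 (edgeR quasi-likelihood test, Benjamini-Hochberg over all genes). Among all 15327 genes tested, 8.75% rose and 7.75% fell. The median log2 fold change of the members was 0.43, against -0.0048 over all genes. FOSB, a FOS protein that pairs with JUN proteins, stood apart in size. It had 12.7, 19.0 and 17.3 CPM with CHX and ML-60218, against 1.67, 2.17 and 1.64 CPM with CHX. Every library with both agents was above every CHX library, by 8.94-fold on average (log2 fold change 3.16 ± 0.19, SE; adjusted p = 1.53e-06). In reads, these libraries held 534, 736 and 696 FOSB reads, against 69, 83 and 59 with CHX. FOSB was the 21st largest rise of all genes tested.

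The other FOS genes rose less. FOSL1, which lacks a strong transactivation domain, averaged 4.69 ± 0.148 CPM with CHX and ML-60218 and 2.98 ± 0.616 CPM with CHX (log2 fold change 0.65 ± 0.12; adjusted p = 0.00308). FOS averaged 36.8 ± 1.46 CPM with both agents and 27.5 ± 2.09 CPM with CHX (0.42 ± 0.05; adjusted p = 0.000229). FOSL2 averaged 184 ± 4.80 CPM with both and 146.4 ± 18.3 CPM with CHX (0.33 ± 0.07; adjusted p = 0.00633). None of these groups overlapped between libraries.

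Of the JUN genes, JUND, which is known as the more constitutive member, rose most. JUND had 50.9, 65.1 and 58.4 CPM with CHX and ML-60218, against 29.8, 31.3 and 28.97 CPM with CHX (log2 fold change 0.95 ± 0.07; adjusted p = 8.7e-06). The groups were far apart, and the spread was wider with both agents. JUN averaged 160.9 ± 9.36 CPM with both and 124.4 ± 12.6 CPM with CHX (0.37 ± 0.07; adjusted p = 0.00478), and JUNB averaged 36.2 ± 2.15 CPM with both and 29.1 CPM with CHX (0.31 ± 0.05; adjusted p = 0.00193). MAFF, a small MAF protein without a transactivation domain, averaged 5.33 ± 0.752 CPM with both and 3.06 ± 0.318 CPM with CHX (0.80 ± 0.14; adjusted p = 0.00175). JDP2 and BATF3, both known to repress AP-1 sites, did not pass the test, at -0.28 ± 0.09 (adjusted p = 0.063) and 0.45 ± 0.23 (adjusted p = 0.226). JDP2 passed it without the second CHX library (-0.35; adjusted p = 0.0267) and with genes under a mean of 5 CPM left out (adjusted p = 0.0428).

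**Figure D1:**
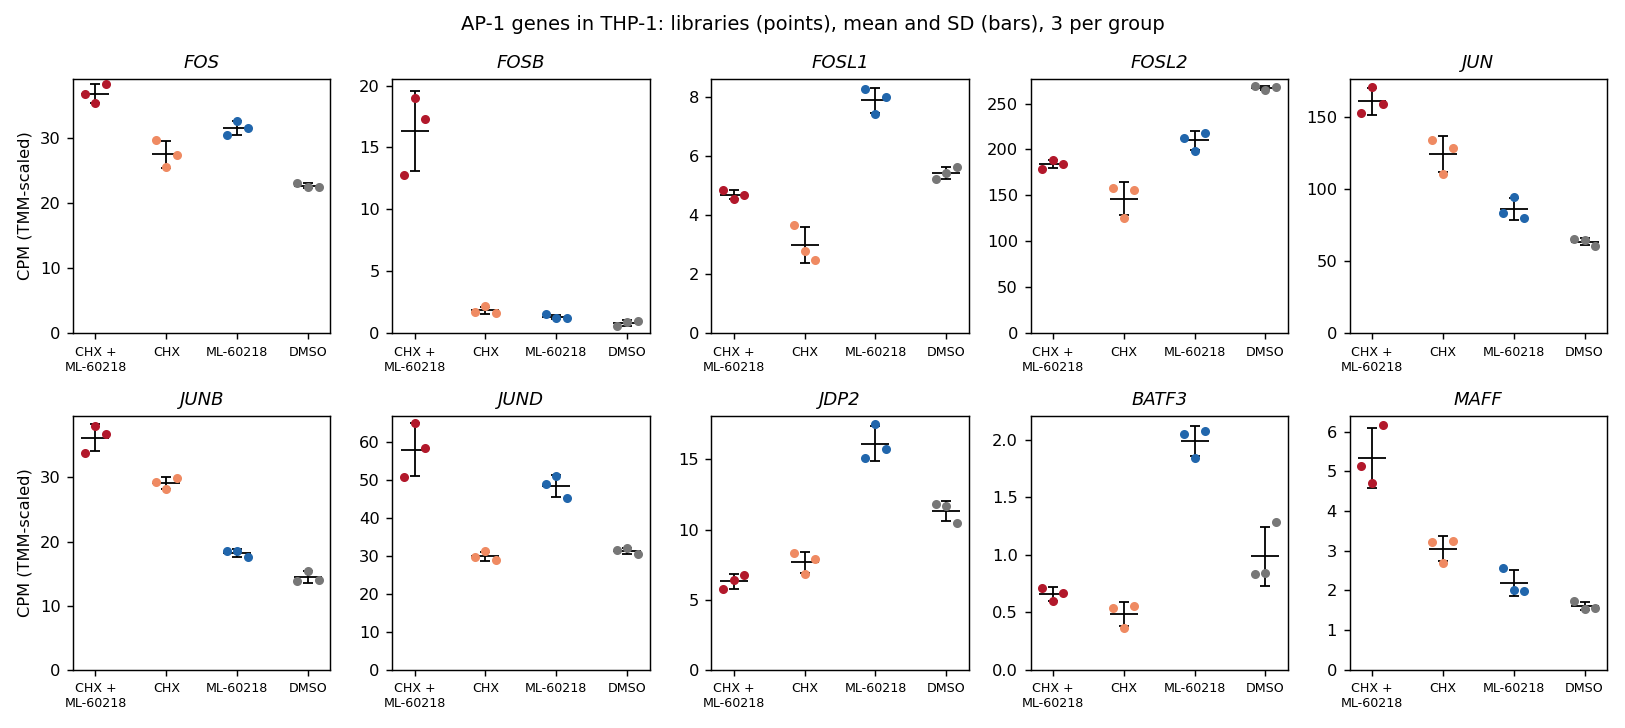
Normalised counts (CPM, linear axes from 0) of the 10 genes in each THP-1 library, with bars for the mean and SD of 3 libraries per group. FOSB is at 12.7 to 19.0 CPM with both agents and at most 2.17 CPM in the other groups, whereas FOSL1, FOSL2, JDP2 and BATF3 are highest with ML-60218 alone or DMSO.

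The comparison of CHX with DMSO asks which members CHX superinduces by itself. Here 5 members rose and 4 fell, while 33.5% of all genes rose and 32.5% fell, so that being called is itself common here. JUNB rose to 29.3, 28.2 and 29.9 CPM with CHX, against 13.9, 15.5 and 14.01 CPM with DMSO, and JUN averaged 124.4 ± 12.6 CPM with CHX and 63.5 ± 2.47 CPM with DMSO. Both came close to a doubling, at log2 fold changes of 1.01 ± 0.06 (adjusted p = 5e-09) and 0.97 ± 0.08 (adjusted p = 1.41e-07). FOSB averaged 1.83 ± 0.295 CPM with CHX and 0.795 ± 0.221 CPM with DMSO (1.19 ± 0.23; adjusted p = 0.000422), a rise that rests on 19 to 34 reads per DMSO library. MAFF rose by 0.93 and FOS, the textbook case of superinduction, by 0.28 on the log2 scale. The members that fell were BATF3 (-1.02 ± 0.23), FOSL2 (-0.87 ± 0.07), FOSL1 (-0.86 ± 0.12) and JDP2 (-0.56 ± 0.09). BATF3 held only 14 to 22 reads per CHX library. JUND did not pass the test (-0.07 ± 0.08; adjusted p = 0.458).

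The size of the CHX values depends on the scale. On log2(TPM + 0.1), tested with limma, the median of all genes was 0.30 higher with CHX than with DMSO, whereas it was -0.0056 on the CPM scale used above. Relative to that median, JDP2 was at -0.42 and JUND at 0.03; without that correction JDP2 was not called (-0.12; adjusted p = 0.384) and JUND was called higher (0.33; adjusted p = 0.000443). The other 8 members kept their calls on that scale. On that scale the split of calls was 6 higher and 3 lower. The 10 monocytic markers, all detected in both groups, summed to 3920 to 4220 CPM with CHX and 5610 to 6160 CPM with DMSO. Most of that gap was LYZ, the gene of lysozyme, at a mean of 2542 CPM with CHX and 4629 CPM with DMSO, and of the 10 markers 5 had a higher and 5 a lower mean with CHX. Their part in the falls of FOSL2, FOSL1 and BATF3 was not tested. In bulk RNA, fewer cells of a kind and less RNA per cell cannot be told apart. The comparison of CHX with DMSO and that of the combination with CHX share the CHX libraries.

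ML-60218 without CHX was set against DMSO. Here 7 members rose and 1 fell, while 8.48% of all genes rose and 7.05% fell, and the members' median log2 fold change was 0.49, against -0.0086 over all genes. BATF3, a partner of JUN proteins known from dendritic cells, had 2.05, 1.84 and 2.08 CPM with ML-60218, against 0.835, 0.841 and 1.28 CPM with DMSO (log2 fold change 1.01 ± 0.20; adjusted p = 0.00491). JUND averaged 48.5 ± 2.82 CPM with ML-60218 and 31.5 ± 0.791 CPM with DMSO (0.62 ± 0.08; adjusted p = 0.000184). FOSL1 (0.54), JDP2 (0.51), FOS (0.48), JUN (0.44) and JUNB (0.33) also rose. FOSL2 fell to 209.9 ± 10.1 CPM with ML-60218, against 267.4 ± 2.23 CPM with DMSO (-0.35 ± 0.07; adjusted p = 0.00403). FOSB (0.69 ± 0.24; adjusted p = 0.0675) and MAFF (0.44 ± 0.15; adjusted p = 0.0627) did not pass, with no overlap between their libraries. With DESeq2, FOSB passed (adjusted p = 0.0457).

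Whether ML-60218 acted differently with CHX was tested as an interaction, the response under CHX minus the response without it. It was called for 3 of 10 members, against 6.56% of all genes in either direction. Among the members, FOSB had the largest difference, with a log2 response of 3.16 under CHX and 0.69 without it (difference 2.47 ± 0.30; adjusted p = 0.00105). FOSL2 went up by 0.33 under CHX, against -0.35 without it (difference 0.68 ± 0.10; adjusted p = 0.00222). JDP2, a dimerisation partner known to repress AP-1 sites, was at -0.28 under CHX and 0.51 without it (difference -0.79 ± 0.13; adjusted p = 0.00508). For JUN (-0.06 ± 0.11), JUNB (-0.02 ± 0.08) and FOS (-0.06 ± 0.08), the difference did not pass the test. JUND (0.33 ± 0.11; adjusted p = 0.0918) passed the test without the first library with both agents (0.41; adjusted p = 0.0129) and with DESeq2 (adjusted p = 0.0315).

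**Figure D2:**
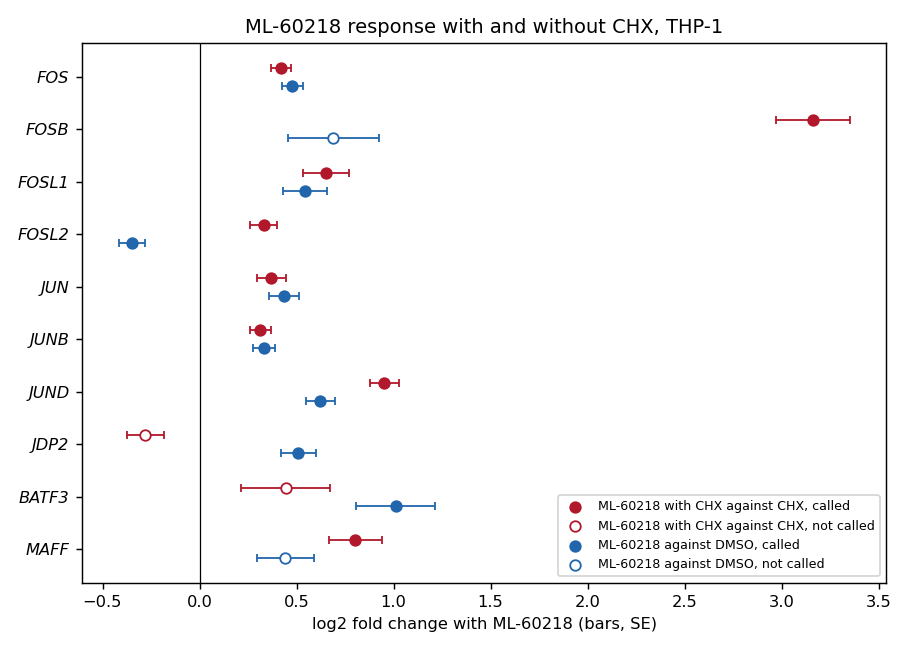
Log2 fold change (points) and its SE (bars) with ML-60218 for each gene, with CHX (red) above and without CHX (blue) below; open points did not pass the test. FOSB is at 3.16 with CHX and 0.69 without it, FOSL2 lies on opposite sides of 0, and the pairs for FOS, JUN and JUNB lie close together.

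Against DMSO, the combination left 9 members changed, 6 higher and 3 lower, where 66.8% of all genes were called. FOSB was 20.4-fold higher (log2 fold change 4.35 ± 0.21), MAFF 3.32-fold, JUN 2.53-fold and JUNB 2.50-fold. FOSL2 (-0.54 ± 0.07, adjusted p = 1.15e-05) and JDP2 (-0.84 ± 0.09, adjusted p = 3.36e-06) were lower with the combination than with DMSO. FOSL1 was not called (-0.21 ± 0.12, adjusted p = 0.136). In TPM, FOSB averaged 7.26 ± 1.39 with both agents and 0.312 ± 0.0896 with DMSO, next to FOSL1 at 6.83 ± 0.378 with both. Its transcript FOSB-201 made up 77.0% of the gene's TPM with both agents. BATF3, called lower (-0.57; adjusted p = 0.0325), lost that call with DESeq2 (adjusted p = 0.105), on log2 TPM (adjusted p = 0.52), and without any 1 library with both agents or the third DMSO library (adjusted p up to 0.222). Set directly against CHX, ML-60218 had 6 members higher and 4 lower, where 67.0% of all genes were called. JDP2 (1.07) and BATF3 (2.03) were higher with ML-60218, and JUNB (-0.68) and JUN (-0.54) were lower. FOSB (-0.51; adjusted p = 0.04997) was at the threshold and lost its call without any 1 CHX library or without the second or the third ML-60218 library (adjusted p up to 0.186). FOS, called higher by 0.20, was called lower on the TPM scale (-0.16; adjusted p = 0.021), where all genes had a median of -0.32 and 4 members were called higher and 5 lower, and FOSL2, called higher by 0.52, did not pass there (0.15; adjusted p = 0.112).

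FOSB, JUNB and MAFF overlap a protein-coding gene on the other strand (ERCC1, HOOK2 and PLA2G6), FOSL2 and JDP2 overlap the antisense genes FOSL2-AS1 and JDP2-AS1, which were not analysed here, and the sources used here do not say whether counting used strand, so reads of overlapping stretches cannot be told apart. With CHX and ML-60218 against CHX, ERCC1 was at -0.04 ± 0.03 (adjusted p = 0.399), HOOK2 at -0.07 ± 0.08 (adjusted p = 0.657) and PLA2G6 at -0.53 ± 0.23 (adjusted p = 0.137). Elsewhere some partners moved with the member. PLA2G6 and MAFF were both called in 6 comparisons, in the same direction in 4, among them CHX against DMSO (PLA2G6 0.88, MAFF 0.93) and the POLR3G siRNA (PLA2G6 -1.23, MAFF -0.83). ERCC1 and FOSB were both called in 10, in the same direction in 4, which were the POLR3G siRNA (ERCC1 0.73, FOSB 0.63), siE4 (0.16 and 0.80), siE6 (0.33 and 0.43) and siE8 (0.38 and 0.51). HOOK2 and JUNB were both called in 5, in opposite directions in each. The part of shared reads in these values was not tested.

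Among 20 other bZIP partners, 8 rose and 3 fell with ML-60218 under CHX, where 8.75% of all genes rose and 7.75% fell. ATF3, a stress-induced partner of JUN, averaged 22.3 ± 2.86 CPM with both agents and 9.73 ± 0.837 CPM with CHX (log2 fold change 1.19), and CREM (0.99) also rose. Of 33 other immediate early genes tested, 15 rose and 2 fell with ML-60218 under CHX. With CHX against DMSO, 27 rose and 2 fell, where 33.5% of all genes rose and 32.5% fell. With ML-60218 against DMSO, 15 rose and none fell, where 8.48% of all genes rose and 7.05% fell. EGR3 (3.27), NR4A3 (2.16) and NR4A1 (1.75), nuclear factors of the early response, had the largest log2 fold changes with ML-60218 under CHX among those of the list at a mean of at least 5 CPM. Of the 21 kinase and SRF pathway genes upstream of FOS and JUN, 2 rose and 2 fell there (9.52% each), near the 8.75% and 7.75% of all genes, with MEF2A at 0.22, MAPK14 at -0.22 and MRTFA at -0.15. Of 20 genes of AU-rich mRNA decay, 2 rose and 1 fell, also near those shares, with ZFP36, whose protein binds AU-rich elements, at 0.50, DCP1A at 0.19 and CNOT8 at -0.16.

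Genes known as AP-1 targets were counted in the same way. Of 19 tested, 13 rose and none fell with ML-60218 against DMSO (median 0.59), where 8.48% of all genes rose and 7.05% fell. With ML-60218 under CHX, 8 rose and 1 fell (median 0.11), where 8.75% of all genes rose and 7.75% fell. The interaction was called for 6 of the 19, all lower under CHX, against 6.56% of all genes in either direction. HMOX1, a haem-degrading enzyme, averaged 15.9 ± 1.96 CPM with ML-60218 and 4.32 ± 0.507 CPM with DMSO, but 6.39 ± 0.845 CPM with both agents and 3.68 ± 0.389 CPM with CHX (interaction -1.09; adjusted p = 0.00522). VIM (0.81) and PLAUR (0.43) rose with ML-60218 under CHX.

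In HEK293T, the POLR3G ASO and siRNA were used in separate experiments, each set against its own control. With the ASO, 7 members rose and 1 fell, while 34.4% of all genes rose and 34.1% fell. FOSB averaged 11.2 ± 1.18 CPM with the ASO and 4.98 ± 0.366 CPM with the scramble ASO (log2 fold change 1.17 ± 0.10; adjusted p = 1.02e-05). JUN had 331.2, 330.6 and 335.1 CPM with the ASO, against 191.7, 210.3 and 191.9 CPM with the scramble ASO (0.75 ± 0.03; adjusted p = 2.94e-07). FOSL2 (0.56), FOS (0.55), JUND (0.50), JUNB (0.44) and MAFF (0.44) rose by less than FOSB. JDP2 fell to 5.50 ± 0.652 CPM with the ASO, against 13.2 ± 0.755 CPM with the scramble ASO (-1.26 ± 0.10; adjusted p = 4.71e-06).

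With the POLR3G siRNA, 4 members rose and 4 fell, while 36.8% of all genes rose and 38.1% fell. JUN doubled, at 504.4, 451.9 and 492 CPM with the POLR3G siRNA, against 238.7, 240.6 and 244.3 CPM with the control siRNA (log2 fold change 1.00 ± 0.04; adjusted p = 2.57e-08). JDP2 fell to 1.74, 1.81 and 1.64 CPM with the siRNA, against 13.6, 12.1 and 13.4 CPM with the control siRNA (-2.91 ± 0.09; adjusted p = 6.81e-09). JUND fell to 11.2, 8.65 and 9.11 CPM with the siRNA, against 34.95, 34.01 and 33.85 CPM with the control siRNA (-1.83 ± 0.08; adjusted p = 6.41e-08). All of these groups were far apart. FOSB (0.63), FOSL1 (0.51) and JUNB (0.32) rose, and MAFF (-0.83) and BATF3 (-0.30) fell. FOSL1 and BATF3 lost their calls with DESeq2 (adjusted p = 0.0943 and 0.116), BATF3 also with an offset for transcript length (-0.09; adjusted p = 0.497), and both without single libraries, among them the first control library and the first and the third siRNA library (adjusted p up to 0.0954). FOS, not called here (0.13), passed without the second siRNA library (0.35; adjusted p = 0.0057), and FOSL2 (-0.22) without the third (-0.31; adjusted p = 0.0218). MAF1 was lower with this siRNA, at 9.84 ± 0.675 CPM, against 49.96 CPM with the control siRNA, and its part in these changes was not tested.

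The difference between the ASO response and the siRNA response was called for 6 of 10 members. It was called for 66.8% of all genes, so that being called is itself common here. Among the members it was largest for JUND, with log2 fold changes of 0.50 (ASO) and -1.83 (siRNA) (difference 2.30 ± 0.12; adjusted p = 1.69e-09). JDP2 fell with both, and by less with the ASO (difference 1.61 ± 0.13), while MAFF had log2 fold changes of 0.44 (ASO) and -0.83 (siRNA) (difference 1.24 ± 0.19). JUN rose by less with the ASO (difference -0.28 ± 0.06; adjusted p = 0.000527). On the TPM scale, where all genes had a median of 0.38, the JUN difference was 0.02 (adjusted p = 0.789), and 8 members were called higher and 0 lower, against 5 and 1 on the CPM scale.

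**Figure D3:**
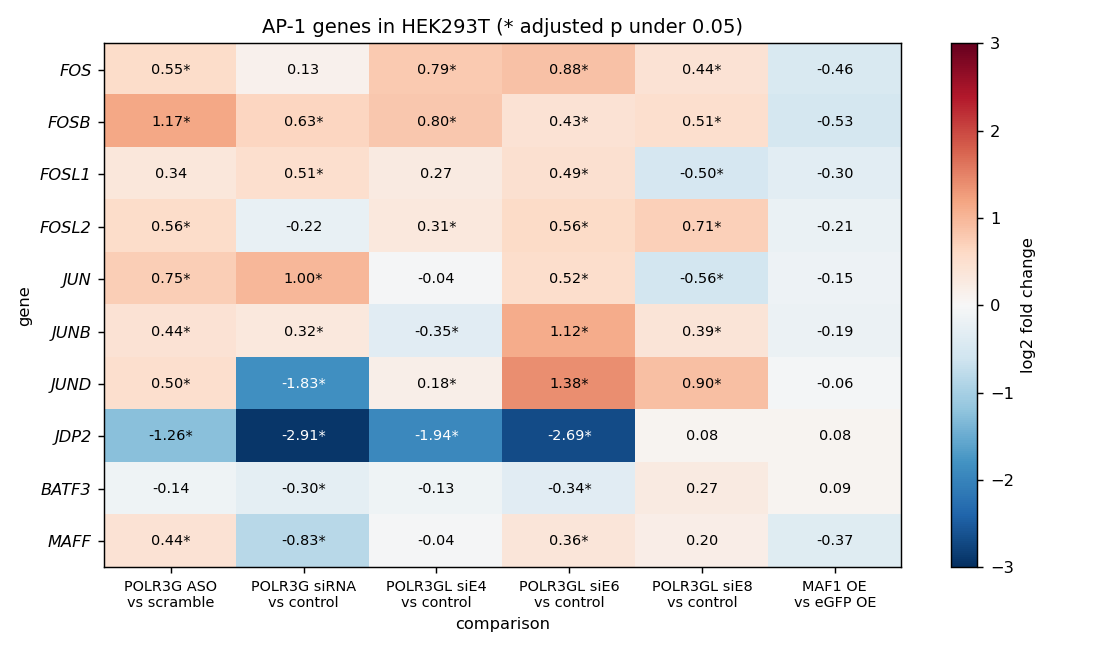
Log2 fold changes of the 10 genes (rows) in the 6 HEK293T comparisons (columns), with an asterisk for an adjusted p under 0.05 and colour from -3 (blue) to 3 (red). JDP2 is at -1.26, -2.91, -1.94 and -2.69 in the first 4 columns and 0.08 with siE8, and no gene has an asterisk in the MAF1 column.

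The POLR3GL siRNAs are 3 sequences against 1 gene, set against the same 3 control libraries. With siE4, 4 rose and 2 fell (26.2% and 28.7% of all genes), but on log2 TPM, where all genes had a median of -0.22, 2 were called higher and 4 lower. With siE6, 8 rose and 2 fell (31.2% and 31.8%), but on log2 TPM 5 were called higher and 2 lower. All genes had a median of -0.185 there. With siE8, 5 rose and 2 fell (29.1% and 28.6%), and on log2 TPM 6 were called higher and 2 lower. JDP2 had 4.63, 4.92 and 3.82 CPM with siE4, 2.87, 2.59 and 2.45 CPM with siE6 and 15.7, 19.4 and 19.0 CPM with siE8, against 16.1, 17.8 and 17.2 CPM with the control siRNA. It thus fell with siE4 (log2 fold change -1.94 ± 0.11; adjusted p = 1.1e-08) and siE6 (-2.69 ± 0.12; adjusted p = 5.99e-10), and the siE8 libraries overlapped the controls (0.08 ± 0.10; adjusted p = 0.513). JUND averaged 41.3 ± 1.78 CPM with siE4, 95.0 ± 3.60 CPM with siE6 and 67.7 ± 2.2 CPM with siE8, against 36.4 ± 2.61 CPM with the control siRNA. The rises with siE6 (1.38 ± 0.05) and siE8 (0.90 ± 0.06) were larger than that with siE4 (0.18 ± 0.06), which was lost without the first control or the third siE4 library (adjusted p = 0.0654 and 0.0614) and on log2 TPM (0.01; adjusted p = 0.93).

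JUN rose with siE6 (0.52 ± 0.05) and fell with siE8 (-0.56 ± 0.05), and with siE4 it did not pass the test (-0.04 ± 0.05; adjusted p = 0.591). On log2 TPM, JUN (-0.22; adjusted p = 0.0188) and BATF3 (-0.31; adjusted p = 0.0402) were called lower with siE4. JUNB rose with siE6 (1.12 ± 0.07) and siE8 (0.39 ± 0.07) and fell with siE4 (-0.35 ± 0.07). FOS averaged 12.52 ± 1.44, 13.4 ± 0.81 and 9.83 ± 1.62 CPM with siE4, siE6 and siE8, against 7.26 ± 1.17 CPM with the control siRNA. FOSB and FOSL2 were called higher with all 3 siRNAs, at log2 fold changes of 0.43 to 0.80 and 0.31 to 0.71, but on log2 TPM neither FOSB with siE6 (adjusted p = 0.0846) nor FOSL2 with siE4 (adjusted p = 0.512) passed. Several smaller calls rested on single libraries. With siE6, MAFF (0.36) was lost without the first control, the first siE6 or the third siE6 library (adjusted p up to 0.109), and BATF3 (-0.34) without the second control, the first siE6 or the third siE6 library (adjusted p up to 0.0948). FOSL1 (0.49) and MAFF also lost their siE6 calls on log2 TPM (adjusted p = 0.464 and 0.376). With the offset for transcript length, FOSL1 and BATF3 lost theirs (adjusted p = 0.118 and 0.12). With siE8, FOS (0.44) was lost without the first control or the first siE8 library (adjusted p up to 0.0728) and FOSL1 (-0.50) without the third siE8 library (adjusted p = 0.0513). BATF3, not called with siE8 (0.27; adjusted p = 0.0521), passed without the second control or the second siE8 library (adjusted p = 0.018 and 0.0385). The 10 HEK293T markers summed to 463 to 521 CPM with siE6, against 1210 to 1340 CPM with the control siRNA. The neurofilament genes NEFM (110.9 CPM with siE6, 704.6 CPM with the control siRNA) and NEFL (75.78 and 308.4 CPM in these groups) made up most of that gap, and 5 markers had a higher and 5 a lower mean with siE6. Their part in the siE6 values was not tested.

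Direct tests between siRNAs against the same gene called 9 of 10 members for siE4 against siE8, 4 higher and 5 lower (2 and 6 on log2 TPM), where 63.0% of all genes were called. For siE6 against siE8 they called 7, 5 higher and 2 lower (4 and 2 on log2 TPM), where 64.2% were called. JDP2 was lower with siE4 than with siE8 (-2.02 ± 0.11) and with siE6 than with siE8 (-2.77 ± 0.12), and JUN was higher (0.52 ± 0.05 and 1.07 ± 0.05). In siE4 against siE8, FOS lost its call without the first or the second siE4 library and without the second or the third siE8 library (adjusted p up to 0.153). FOSB lost it without the first siE4 or the third siE8 library (adjusted p up to 0.217). In siE6 against siE8, FOS lost its call without the third siE8 library (adjusted p = 0.0516), FOSL2 passed without the first siE6 library (-0.26; adjusted p = 0.00785) and MAFF without the first siE8 library (0.30; adjusted p = 0.0465).

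**Figure D4:**
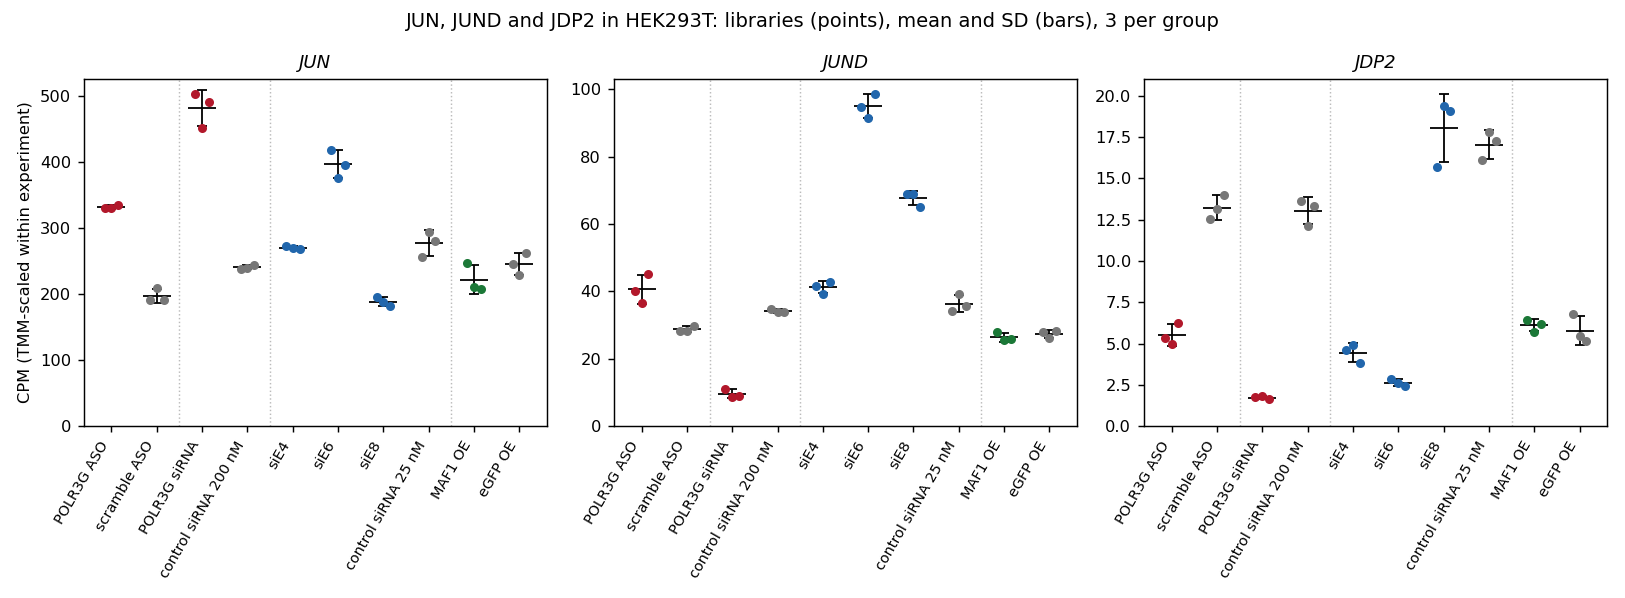
Normalised counts (CPM, linear axes from 0, scaled within each experiment) of JUN, JUND and JDP2 in each HEK293T library, with bars for the mean and SD of 3 libraries and dotted lines between experiments. JUN is highest with the POLR3G siRNA (451.9 to 504.4 CPM) and JUND with siE6 (91.4 to 98.6 CPM), and JDP2 is lowest with the POLR3G siRNA (1.64 to 1.81 CPM).

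MAF1 overexpression against eGFP overexpression called 0 of 10 members with edgeR and 0 with DESeq2, where 0.0386% of all genes were called. At an unadjusted p under 0.05 there were 2 members with either tool. The largest difference among the members was in FOSB, at 2.64 ± 0.366 CPM with MAF1 and 3.83 ± 0.288 CPM with eGFP (log2 fold change -0.53 ± 0.13; adjusted p = 0.391), with no overlap between libraries. MAFF (-0.37 ± 0.11; adjusted p = 0.418) was likewise without overlap.

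Over the 14 group means, each centred on its experiment, the genes closest to FOS among 11559 were TVP23B (Pearson r = 0.89), ZFP36 (0.86), MTF1 (0.86), MED17 (0.85) and UAP1L1 (0.83). Those closest to JUN were ZNF136 (0.97), ZNF518B (0.95), KHDC4 (0.95), KLF6 (0.94) and SMG1 (0.94). These are descriptions over groups that share library preparation and, within an experiment, controls. In experiments with only a treated and a control group, centring makes their values mirror images, so the 14 values are not independent.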

How the data were processed

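Stranded mRNA libraries were sequenced from both ends, per the labels' protocols. The submitters' processing notes name bcl2fastq 2.20, Trim Galore, Salmon, DESeq2 and hg38; the notes as used here give no roles and no other versions. The deposited table, per the file headers, holds an estimated count and a TPM value for each of 194142 transcripts in each library. GENCODE 29 (GRCh38) named 158359 transcripts (81.57%), holding 91.14% of the reads; unnamed ones could include member transcripts and were not used here. Estimated counts were summed to 34318 genes and rounded to whole numbers. Fits were made separately for every experiment, and over both for ASO minus siRNA, using the quasi-likelihood F-test of edgeR 4.0.16 under R 4.3.3 (TMM, filterByExpr, Benjamini-Hochberg over all genes tested, calls at an adjusted p under 0.05); the SE is the log2 fold change divided by the square root of F. CPM values are scaled by TMM within an experiment. Groups had 3 libraries. Salmon divides reads between similar transcripts by estimation. Members, gene lists and tests were chosen with earlier results of these data known. Named are the 10 members, then, for each list, the 3 called genes with the largest change with ML-60218 under CHX and a mean of at least 5 CPM, the 5 genes most like FOS and JUN, and the targeted genes; 1 gene that this rule names is not reported here. Alternatives were the DESeq2 1.42.0 test, its size factors within edgeR, all genes with a read, genes averaging 5 CPM or more, an offset for transcript length, a replicate block, an adjusted p under 0.01, only the groups compared, and each library left out; limma 3.58.1 on log2(TPM + 0.1) was added after seeing the data. The test was tried on data simulated with the spread fitted to these libraries. The outcome is not given here, so the calls draw no support from it. Python 3.11.15 with pandas 2.3.3, numpy 2.4.6 and matplotlib 3.10.9 was used for sequences and figures.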

Additional observations from a re-analysis of the deposited data

Results flagged for a closer look

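The response to ML-60218 differed with CHX, by the interaction term, for FOSB (2.47), FOSL2 (0.68) and JDP2 (-0.79), all in log2 units and as the response under CHX minus that without it. The response to the POLR3G ASO minus that to the POLR3G siRNA differed, by the same kind of term, for JUND (2.30), JDP2 (1.61), MAFF (1.24), FOSL2 (0.75), FOSB (0.51) and JUN (-0.28). With the length offset, the FOSB difference between ASO and siRNA no longer passed (0.44; adjusted p = 0.0581). On log2 TPM, tested with limma, the JUN difference changed sign and did not pass (0.02, adjusted p = 0.789).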

How the results depend on the processing

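Of 2137 member values recomputed under an alternative, 2035 kept their direction and side of the threshold, 59 lost their call, 21 gained one and 22 changed sign. Of the sign changes, 18 were between values of which neither passed the test. With the length offset, JUND in CHX against DMSO was at 0.00787, JUNB in the interaction at 0.00313 and BATF3 with the POLR3G ASO at 0.131. On log2 TPM the sign changed for JUND in CHX against DMSO (0.333), FOSL1 in the combination against DMSO (0.16), FOS in ML-60218 against CHX (-0.159), BATF3 with the POLR3G ASO (0.316), FOS with the POLR3G siRNA (-0.00332), FOSL1 with siE4 (-0.115), MAFF in siE6 against siE8 (-0.029), and FOSL1 (0.248) and JUN (0.0202) in ASO minus siRNA. Compared with CPM, that scale moved the median of all genes by 0.31 with CHX against DMSO, 0.271 with the combination against DMSO, -0.33 with ML-60218 against CHX, 0.176 with the POLR3G ASO, -0.196 with siE4, -0.183 with siE6, -0.181 and -0.159 with siE4 and siE6 against siE8, and 0.30 in ASO minus siRNA, and by under 0.1 in size in the other comparisons. Without the low-count filter that median was 0.16 with the ASO and 0.31 in ASO minus siRNA. Leaving out each library in turn gave, for values that changed sign, -0.0723 to 0.022 (JUNB), -0.0123 to 0.282 (FOSL1) and -0.151 to 0.00977 (JUN) in the interaction, -0.0148 to 0.35 for FOS with the POLR3G siRNA, -0.0913 to 0.00811 (JUN) and -0.113 to 0.0381 (MAFF) with siE4, and -0.46 to 0.114 for FOSL1 in ASO minus siRNA. The number of members called stayed within 1.5 times the main number in each comparison and setting except 1: with genes averaging under 5 CPM left out, 5 members were called for the POLR3G siRNA, since that filter removed members.

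In no experiment was the correlation of same-numbered libraries over 0.1 for every pair (range -0.2 to 0.19), so replicate numbers were not taken as pairs. A library correlated best with one of its own number in 9 of 12 THP-1 libraries, 4 of 6 ASO, 0 of 6 POLR3G siRNA, 6 of 12 POLR3GL siRNA and 0 of 6 overexpression libraries, a hint from the data and not from the design. With the replicate block, 9 members were called for ML-60218 against DMSO, MAFF passing at an adjusted p of 0.0499. Low reads limit FOSB and BATF3 in THP-1, which held 19 to 34 and 29 to 45 reads per DMSO library. BATF3 held fewer with CHX, at 14 to 22 reads per library, and 23 to 30 with both agents.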
